A study of Caenorhabditis elegans with 16 samples.

Results

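The vitellogenin genes vit-1 to vit-6, which encode the yolk proteins of Caenorhabditis elegans, were examined in whole L4 worms of wild type and RNA editing mutant strains with and without heat shock. Members were all rows of the table of normalised read counts that carried one of these 6 gene symbols, and 9 transcripts of 6 genes were found among 26080 transcripts of 21544 genes. vit-1, vit-3, vit-4 and vit-5 had 1 transcript each, vit-2 had the transcripts C42D8.2a and C42D8.2b, and vit-6 had the transcripts K07H8.6a, K07H8.6b and K07H8.6c. All 9 had a mean normalised count of at least 1 over all libraries, the minimum for testing, which 24401 transcripts met. The wild type strain was N2. The mutants carried deletions in adr-1 and in adr-2, the genes of the worm ADAR proteins, which bind double-stranded RNA. Of these, adr-2 encodes the enzyme that converts adenosine to inosine. One mutant strain, BB4, carried the alleles adr-1(gv6) and adr-2(gv42), and the other, BB21, carried adr-1(tm668) and adr-2(ok735). Each strain was kept on plates at 20 °C (standard conditions), or was placed at 34 °C in a water bath for 75 min, left at room temperature for 20 min and returned to 20 °C for 3 h (heat shock). Poly(A) RNA was sequenced from 3 N2, 3 BB4 and 2 BB21 libraries per condition, 16 in all. BB4 and BB21 formed 1 group, the ADAR mutants, with 5 libraries per condition. The labels number the libraries as biological replicates, and each strain stands for 1 line.

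Vitellogenins are large lipid-carrying proteins related to the apolipoproteins of vertebrates. In the hermaphrodite they are made in the intestine, secreted into the body cavity and taken up by growing oocytes through the receptor RME-2. Their transcripts appear at the end of larval life, when the gonad begins to make oocytes, and are among the most abundant of the adult. vit-1 and vit-2 encode closely related large yolk proteins, vit-3, vit-4 and vit-5 encode a second set of large yolk proteins with very similar sequences, and vit-6 encodes a precursor that is cut into a pair of smaller yolk proteins. Because the reads were single 50 nt reads and the authors let a read align to several transcripts, reads of vit-3, vit-4 and vit-5, and of the transcripts of 1 gene, can be counted for more than 1 of them. Values for these transcripts are therefore not independent of each other.

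The libraries held between 4699505 and 35693369 reads counted on transcripts. Libraries with titles ending in 12_7 (replicate 1 of N2 and BB21 and replicate 2 of BB4) or 28_6 (replicate 2 of N2 and replicate 1 of BB4) had at most 9624995 reads, and the 6 libraries with other titles (replicate 3 of N2 and BB4 and replicate 2 of BB21) had at least 30011732. The title endings of these 6 differ between N2, BB4 and BB21. adr-2 transcript levels were between 732 and 1442 normalised counts in N2 and between 140 and 593 in the mutants, without overlap. The heat-inducible chaperone gene hsp-70 (C12C8.1) was 7.51 to 8.28 times higher after heat shock in the 12_7 pairs and 1.77 to 1.96 times higher in the pairs with other titles. In the pairs titled 28_6, hsp-70 was at 0.410 and 0.541 of the level in the library labelled standard, against the labels, while the small heat shock gene hsp-16.2 was at 1.09 and 1.54 times that level. Fold changes of the members and counts of the gene lists after heat shock are therefore also given without the 4 libraries titled 28_6.

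Vitellogenin transcripts were abundant at this stage. Together the 9 transcripts took between 0.305% and 1.87% of the counted reads of a library. A read of vit-2 or vit-6, or one shared by vit-3, vit-4 and vit-5, can be counted there for more than 1 transcript. A member was covered by at least 1046 reads in every library, apart from vit-6 K07H8.6b, whose lowest library had 168 reads, so that counting error was small beside the spread between libraries. Among all transcripts ranked by mean normalised count, vit-6 K07H8.6a stood at rank 61, vit-4 at 70, vit-2 C42D8.2a at 73, vit-5 at 76, vit-3 at 77 and vit-1 at 203, while vit-6 K07H8.6b stood at rank 3389. For comparison between genes, counts were divided by transcript length for the 6 members found in the annotation of the newer build WBcel235, which left out both vit-2 transcripts and vit-6 K07H8.6b. In N2 under standard conditions the level was 2335 ± 842 normalised counts per kb (SD, n = 3) for vit-1, 4382 ± 2130 for vit-3, 4444 ± 2195 for vit-4, 4392 ± 2348 for vit-5 and 3956 ± 2898 for vit-6 K07H8.6a. vit-1 had the lowest level per kb of these in 16 of 16 libraries, and vit-3 was 1.63 to 2.46 times as high as vit-1. Reads of vit-3, vit-4 and vit-5 can be counted for more than 1 of them, which can raise their levels per kb and draw them together. How much of the gap to vit-1 this makes up was not tested. The levels per kb of vit-3, vit-4 and vit-5 were not separated: vit-5 was above vit-3 in 8 of 16 libraries, with ratios between 0.808 and 1.15. vit-6 K07H8.6a was below vit-4 in 5 of the 8 standard libraries and below it in 1 of the 8 heat-shocked libraries.

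**Figure D1:**
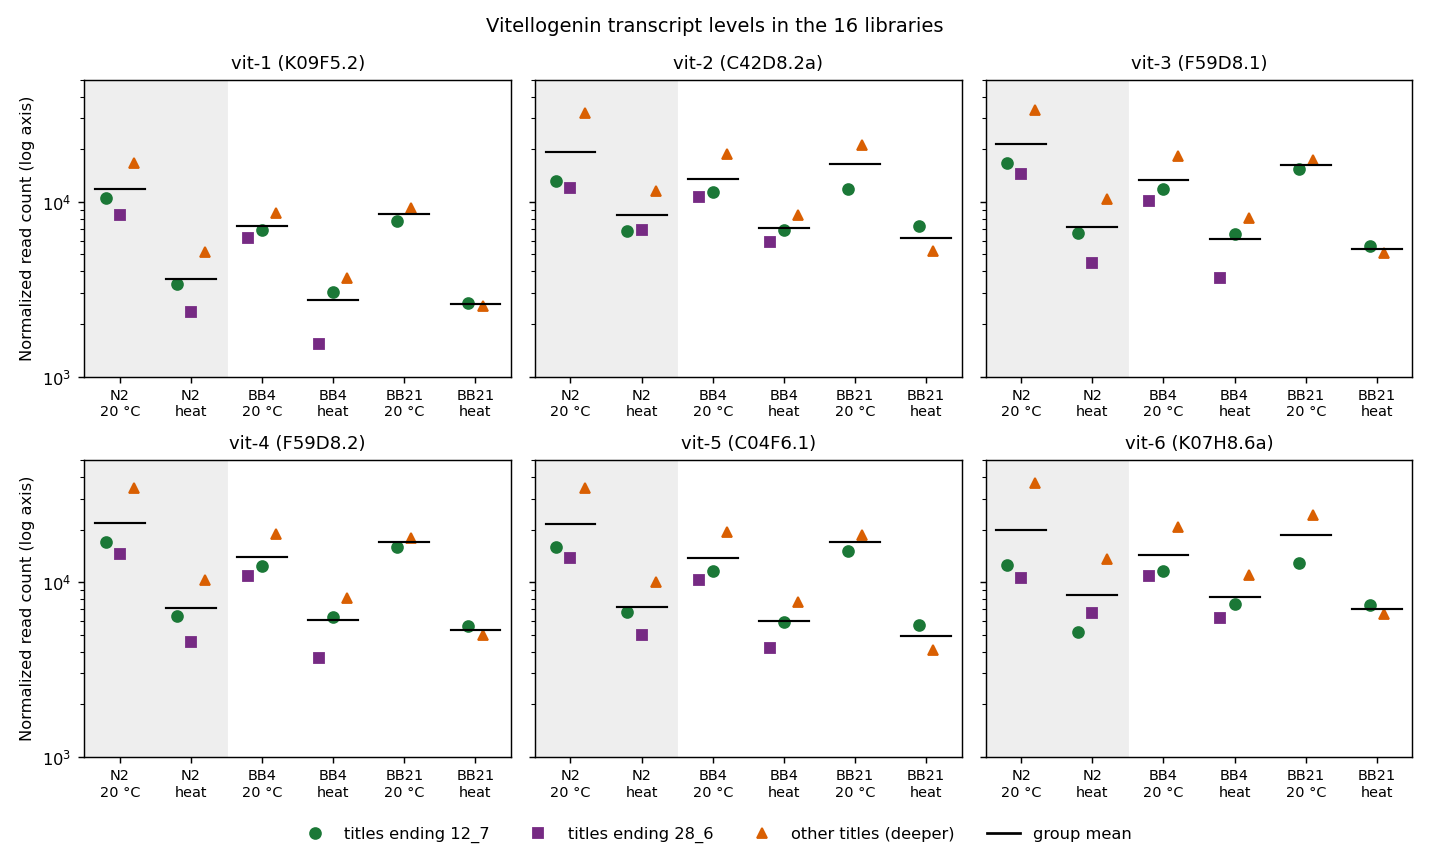
Normalised read counts (log axis) of 1 transcript per vitellogenin gene in each of the 16 libraries, by strain and condition, with the group mean as a bar and symbols for the title ending. For vit-1 the heat-shocked libraries of all strains lie between 1544 and 5148 and the standard libraries between 6194 and 16666.

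The level of all vitellogenin transcripts together fell after heat shock in every pair of libraries. The sum adds every transcript of every member, so that reads of vit-2 and vit-6 can enter it more than once. So can reads shared by vit-3, vit-4 and vit-5. The summed normalised count in N2 was 108040, 93285 and 259130 in replicates 1 to 3 under standard conditions and 45489, 41594 and 86676 in the same replicates after heat shock. The lowest standard library therefore lay above the highest heat-shocked one. In the ADAR mutants the sum was between 77464 and 154360 under standard conditions, with a median of 100350. It was between 35646 and 66769 after heat shock, with a median of 47170, and again the groups did not overlap. The mean difference on the log2 scale was -1.33 in N2 and -1.21 in the mutants. An exact two-sided permutation test over libraries gave p = 0.1 in N2, the smallest that 3 against 3 libraries can give, and p = 0.00794 in the mutants, the smallest that 5 against 5 can give. With TMM scaling of the reads the difference in N2 was -1.30 and its exact p was 0.2. Heat-shocked libraries held between 0.263 and 0.573 of the sum of the standard library of the same strain and replicate number. Without the libraries titled 28_6 the differences were -1.41 in N2 (exact p = 0.333, the smallest possible) and -1.23 in the mutants (exact p = 0.0286, the smallest possible). In bulk RNA of whole worms, less RNA per cell and fewer cells that make it cannot be told apart.

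Of the single transcripts, 4 of 9 fell in N2 in a limma fit across all transcripts with Benjamini-Hochberg adjustment, against 0.537% of all transcripts tested that fell. In the ADAR mutants 5 of 9 fell, against 2.39% of all transcripts tested. In N2 these were vit-1, vit-3, vit-4 and vit-5, and in the mutants the same 4 and vit-2 C42D8.2a. All 9 had negative log2 fold changes in both, with medians of -1.14 in N2 and -1.10 in the mutants, where the medians over all transcripts tested were 0.04 and 0.07. Standard and heat-shocked libraries that share strain and replicate number deviated together over all transcripts. In only 5 of these 8 pairs did the standard library correlate best with its own partner. The fit with these 8 pairs as a block is given beside the first. With the replicate block all 9 transcripts fell in N2, where 9.91% of all transcripts fell, and all 9 fell in the mutants, where 9.75% did. The adjusted p-values with the block were between 0.00227 and 0.042 in N2 and between 0.000405 and 0.00415 in the mutants, with the same fold changes. All 9 transcripts were lower after heat shock in 8 of 8 pairs, as were 12.4% of all transcripts tested. Every heat-shocked library lay below every standard library for 5 of 9 transcripts in N2 and 6 of 9 in the mutants, a pattern that 7.62% and 4.2% of all transcripts showed.

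The N2 calls without the block were close to the threshold. Of the 16 fits that each left out 1 library, 2 gave the count of 4 (without N2 heat shock replicate 3 or BB4 heat shock replicate 1) and 1 gave 3 (without BB4 heat shock replicate 2). The count was 2 without BB4 standard replicate 1 or BB4 heat shock replicate 3. It was 1 without N2 heat shock replicate 2, any BB21 library, or BB4 standard replicate 2 or 3, and 0 without N2 standard replicate 1, 2 or 3 or N2 heat shock replicate 1. vit-1 was called in 12 of the 16 fits, vit-4 in 5, vit-3 in 3 and vit-5 in 2. In the mutants vit-1, vit-3, vit-4 and vit-5 were called in 16 of 16. With only the 12 libraries not titled 28_6 the count was 1 in N2 and 4 in the mutants, where 1.25% and 5.03% of all transcripts were called in either direction. The same 12 libraries with the replicate block gave 8 of 9 in N2 and 9 of 9 in the mutants, where 15.9% and 19.8% were called. With the block, leaving out the N2 pair of replicate 1 gave 4 and that of replicate 3 gave 5 of 9 in N2, and leaving out any other pair gave 8 or 9. In the mutants all 9 fell with the block whichever pair was left out.

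vit-1 (K09F5.2) showed the largest fold change of the 9 transcripts in both comparisons. Its normalised count in N2 was 10577, 8398 and 16666 in standard replicates 1 to 3, and 3389, 2328 and 5148 in the heat-shocked ones. In BB4 it went from 6194, 6917 and 8673 to 1544, 3042 and 3666, and in BB21 from 7768 and 9249 to 2640 and 2551. Every heat-shocked library of every strain was thus below every standard library. The log2 fold change was -1.73 ± 0.35 (SE) in N2 (adjusted p = 0.0228) and -1.57 ± 0.27 in the mutants (adjusted p = 0.00476). Of all transcripts tested, 1.44% had a lower fold change than vit-1 in N2 and 2.18% in the mutants. Within the pairs the level after heat shock was between 0.249 and 0.440 of the standard level, and with only the 12 libraries not titled 28_6 the log2 fold changes were -1.67 and -1.46 (adjusted p = 0.041 and 0.00699).

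The 3 genes of the second large yolk protein set, vit-3, vit-4 and vit-5, fell by similar amounts. The vit-3 (F59D8.1) count was 16703, 14407 and 33613 in N2 under standard conditions and 6677, 4457 and 10350 after heat shock. In BB4 it went from 10067, 11864 and 18290 to 3682, 6568 and 8115, and in BB21 from 15352 and 17270 to 5622 and 5102. No heat-shocked library of either group reached the lowest standard library of that group, and N2 standard replicate 3 was the highest of all 16. The log2 fold changes were -1.57 ± 0.38 in N2 (adjusted p = 0.0431) and -1.34 ± 0.30 in the mutants (adjusted p = 0.0154). For vit-4 (F59D8.2) they were -1.61 ± 0.38 (adjusted p = 0.0394) and -1.41 ± 0.29 (adjusted p = 0.0112), with counts between 14501 and 34365 before and 4534 and 10318 after heat shock in N2. For vit-5 (C04F6.1) they were -1.50 ± 0.38 (adjusted p = 0.0475) and -1.44 ± 0.29 (adjusted p = 0.0105). vit-5 counts in N2 were between 13714 and 34528 before and between 4975 and 9970 after heat shock, and in the mutants between 10263 and 19454 before and between 4079 and 7730 after. In the gene annotation of WBcel235 vit-3 and vit-4 are neighbours, vit-1 to vit-5 lie on chromosome X and vit-6 lies on chromosome IV. vit-3 and vit-4 counts differed by little in any library, with vit-3 at 0.931 to 1.05 times vit-4. With only the 12 libraries not titled 28_6, none of the 3 was called in N2 without the block (adjusted p between 0.0874 and 0.118), and all 3 fell in the mutants.

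vit-2, whose protein is closely related to that of vit-1, was lower by a smaller factor. The count of its transcript C42D8.2a was 13080, 12039 and 32461 in N2 under standard conditions and 6769, 6922 and 11532 after heat shock. In BB4 it went from 10647, 11315 and 18814 to 5854, 6919 and 8432, and in BB21 from 11797 and 21070 to 7233 and 5203. The groups did not overlap in N2 or in the mutants, but the highest N2 heat-shocked library lay close below the lowest standard one. The log2 fold change was -1.08 ± 0.38 in N2 (adjusted p = 0.13) and -1.09 ± 0.29 in the mutants (adjusted p = 0.0357). With only the 12 libraries not titled 28_6 it was -1.15 in the mutants (adjusted p = 0.0848), and the call was lost. It was also lost when any 1 of BB21 standard replicates 1 and 2, BB21 heat shock replicates 1 and 2, BB4 standard replicates 2 and 3 or BB4 heat shock replicates 1 and 2 was left out, with an adjusted p of 0.0876 at most. With the replicate block the adjusted p-values were 0.0177 and 0.00309. The other transcript, C42D8.2b, had log2 fold changes of -1.09 in both (adjusted p = 0.222 and 0.0933, and 0.017 and 0.00297 with the block). In N2 its heat shock replicate 3, at 10915, exceeded standard replicates 1 and 2, at 10007 and 9089. Without the libraries titled 28_6 its changes were -1.24 and -1.14 (adjusted p = 0.346 and 0.179, and 0.033 and 0.00733 with the block).

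For vit-6, the gene of the smaller yolk proteins, standard and heat-shocked libraries overlapped in N2 and in the mutants. The K07H8.6a count was 12494, 10626 and 36890 in N2 under standard conditions and 5178, 6620 and 13647 after heat shock, so that heat shock replicate 3 exceeded standard replicates 1 and 2. In BB4 it went from 10847, 11505 and 20590 to 6234, 7512 and 10947, and in BB21 from 12849 and 24264 to 7440 and 6568. In the mutants the overlap came from BB4 heat shock replicate 3 alone, which exceeded BB4 standard replicate 1. Within its own pair each heat-shocked library held between 0.271 and 0.653 of the standard level. The log2 fold change was -1.13 ± 0.47 in N2 (adjusted p = 0.195, and 0.0143 with the block) and -0.9998 ± 0.36 in the mutants (adjusted p = 0.116, and 0.00394 with the block). The rarer transcript K07H8.6b was between 693 and 3214 normalised counts in N2 under standard conditions and between 454 and 1245 after heat shock. Its log2 fold changes were -0.79 in N2 (adjusted p = 0.602, and 0.042 with the block) and -1.10 in the mutants (adjusted p = 0.255, and 0.00279 with the block). Without the libraries titled 28_6 the changes of K07H8.6a were -1.35 and -1.05 (adjusted p = 0.285 and 0.212, and 0.0212 and 0.00678 with the block), and in N2 that of K07H8.6b was -0.88 and was not called with the block (adjusted p = 0.0687).

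**Figure D2:**
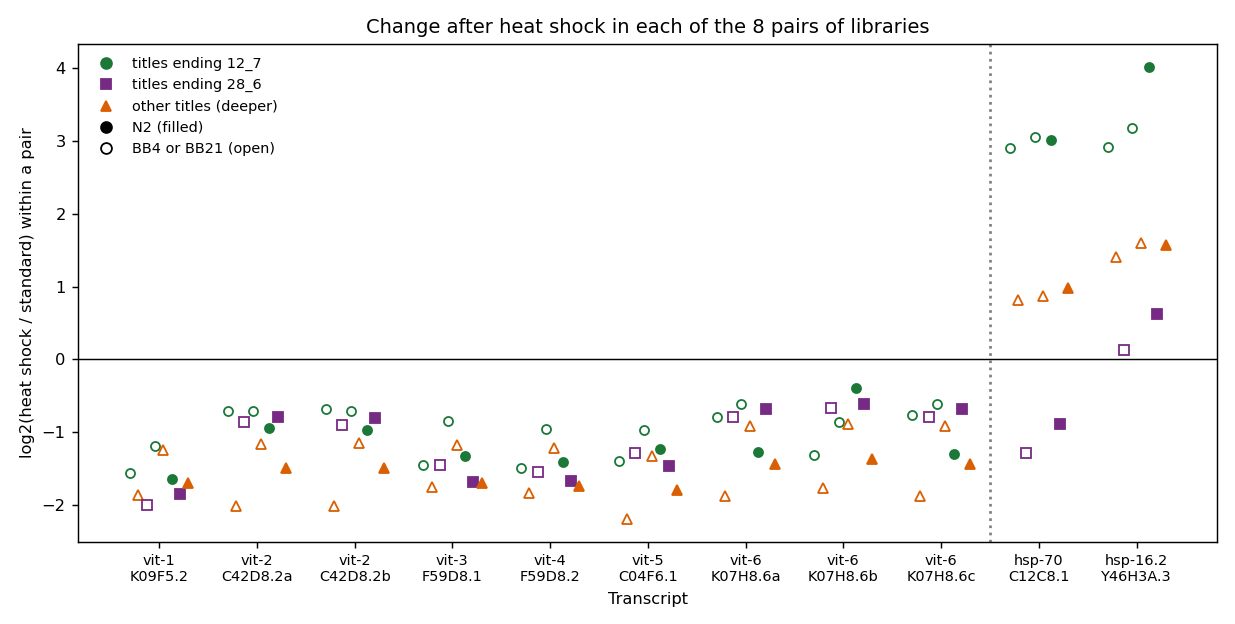
Log2 ratio of the heat-shocked to the standard library within each of the 8 pairs for the 9 vitellogenin transcripts and 2 heat shock genes, with symbols for the title ending and filled symbols for N2. All vitellogenin ratios lie below 0, between -2.19 and -0.40, while hsp-70 is below 0 in the 2 pairs titled 28_6 and at 3.05 at most in the others.

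**Figure D3:**
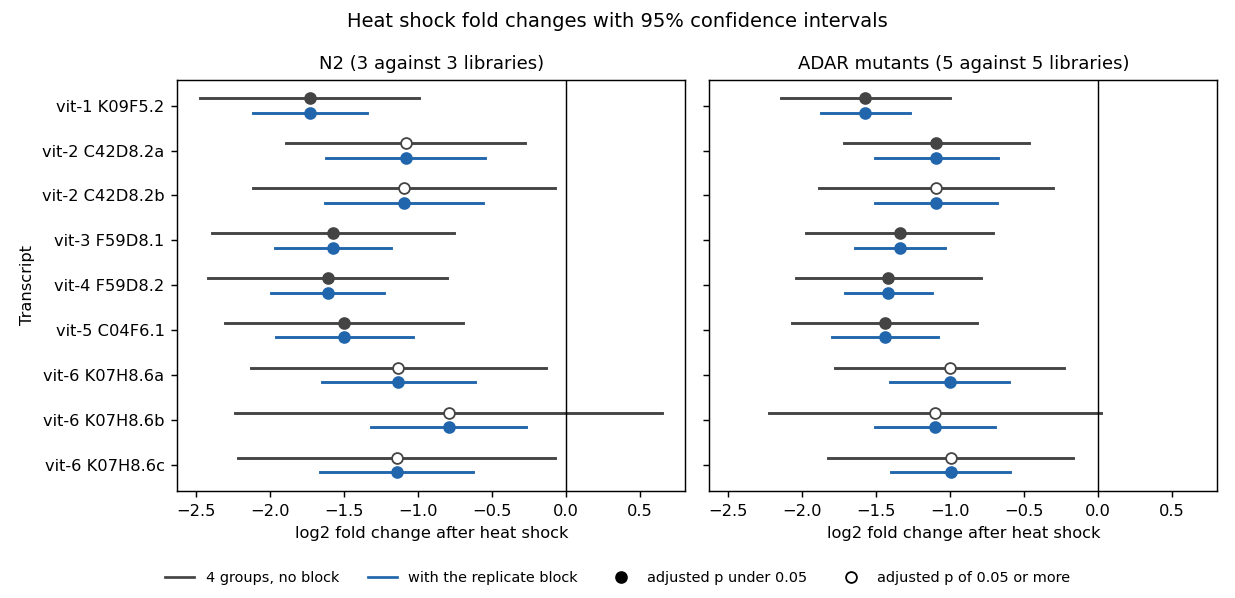
Log2 fold changes after heat shock with 95% confidence intervals from limma, for N2 and the ADAR mutants, without a block (dark) and with the replicate block (blue), where filled symbols have an adjusted p under 0.05. The fold changes are the same in both fits, and the standard errors in N2 go from between 0.35 and 0.68 to between 0.17 and 0.24.

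The decrease was present within each set of titles. The mean log2 ratio of the summed count was -1.05 over the 3 pairs titled 12_7, where hsp-70 rose most, -1.14 over the 2 pairs titled 28_6, and -1.54 over the 3 pairs with other titles. In the 12_7 and 28_6 pairs vit-1 was lowered more than vit-6 K07H8.6a (mean log2 ratios -1.46 against -0.89 and -1.93 against -0.74). In the pairs with other titles the values were -1.60 and -1.41. There vit-5 had the lowest mean of the members, -1.77, and vit-2 C42D8.2a, at -1.56, was close to vit-1. Under standard conditions the 3 libraries with other titles held sums between 144630 and 259130, and the 5 others between 77464 and 108040. These 3 libraries are also the deepest of the standard libraries, and depth and title cannot be told apart. N2 standard replicate 3 was highest for all 9 transcripts. With only the 10 libraries titled 12_7 or 28_6, 8 of 9 transcripts fell in N2 and 9 of 9 in the mutants, where 2.88% and 7.77% of all transcripts changed in either direction. N2 had 2 libraries per condition in that fit. With only the 6 others 9 of 9 fell in the mutants, where 18.8% of all transcripts changed. N2 had 1 library per condition among these 6, with a log2 ratio of the summed count of -1.58.

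Loss of the ADAR genes was compared with the wild type under each condition. Under standard conditions all 9 transcripts had a lower mean in the mutants, with log2 differences between -0.57 (vit-1) and -0.16 (vit-6 K07H8.6c). None of the 9 passed the test in limma, DESeq2 or edgeR, and 0 of 9 had an unadjusted limma p under 0.05. Among all transcripts 0.0041% were called, and 946 of 24401 had an unadjusted p under 0.05. For vit-1 the mutant libraries lay between 6194 and 9249 and the N2 libraries between 8398 and 16666. The difference of -0.57 had a 95% interval of -1.23 to 0.09, and the intervals of the 9 transcripts together spanned -1.57 to 1.02. With the title sets as a block, 4 of 9 transcripts (vit-1, vit-3, vit-4 and vit-5) had an unadjusted p under 0.05, as had 2554 of all 24401 transcripts (10.5%), and 0 of 9 were called, with vit-1 at -0.66 (95% interval -1.002 to -0.32, adjusted p = 0.145). This block takes the other titles as a single set, although their endings differ between the strains. Within that set strain and title ending cannot be told apart.

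After heat shock the differences between mutants and N2 were between -0.58 (vit-6 K07H8.6b) and -0.01 (vit-6 K07H8.6c), and 0 of 9 passed in limma, DESeq2 or edgeR, where limma called 0% of all transcripts and 1132 had an unadjusted p under 0.05. None of the 9 had an unadjusted p under 0.05 there. With the title sets as a block 2 of 9 had one, as had 4446 of 24401 transcripts (18.2%), and 0 of 9 were called. These were vit-1 at -0.50 (95% interval -0.84 to -0.16, adjusted p = 0.193) and vit-6 K07H8.6b at -0.70 (95% interval -1.13 to -0.26, adjusted p = 0.172). The limit of this block given for standard conditions holds here too. The comparison of the 2 heat responses, which tests whether the decrease differed between mutants and N2, gave differences between -0.31 and 0.23 and 0 of 9 calls in limma, DESeq2 or edgeR, with 0% of all transcripts called and 341 at an unadjusted p under 0.05. For vit-1 the difference was 0.16, with a 95% interval of -0.78 to 1.10 without the block and -0.33 to 0.65 with it. These intervals hold 0 and responses that differ in either direction. BB4 and BB21 differed by -0.43 to -0.24 under standard conditions and by -0.01 to 0.30 after heat shock, with 0 of 9 called in limma, 0 of 9 at an unadjusted p under 0.05, and 0% of all transcripts called in either. The intervals of these differences reached from -2.17 to 2.04. In the same fit with the strains kept apart, the log2 fold changes after heat shock were between -1.48 and -0.77 in BB4 and between -1.80 and -1.33 in BB21. None of the 9 was called in either, as 0% of all transcripts were called lower, and 5 and 6 of 9 had an unadjusted limma p under 0.05, where 985 and 549 of 24401 transcripts had one and were lower. edgeR and DESeq2 were not run on the strains apart.

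Ratios between members within a library are given as a description, without a test, since the 8 ratios were chosen after their values had been seen and vit-3, vit-4 and vit-5 can share reads. The ratio of vit-1 to vit-6 K07H8.6a had a median of 0.586 in standard libraries (0.381 to 0.847) and of 0.366 in heat-shocked ones (0.248 to 0.655). It was lower after heat shock in 7 of 8 pairs, with a mean log2 change of -0.58 ± 0.44 (SD), and went from 0.381 to 0.388 in BB21 replicate 2. In the 6 pairs not titled 28_6 the mean change was -0.38, with 5 of 6 lower. The ratios of vit-3, vit-4 and vit-5 to vit-6 had mean log2 changes of -0.38, -0.44 and -0.41 over the 8 pairs and of -0.23, -0.29 and -0.34 over those 6. The ratio of vit-1 to vit-2 had a mean log2 change of -0.54 ± 0.47 over the 8 pairs and -0.36 over the 6. The ratio of vit-2 to vit-6 had a mean log2 change of -0.04 ± 0.17, that of vit-3 to vit-5 of 0.03 ± 0.21 and that of vit-3 to vit-4 of 0.06 ± 0.04. The ratio of vit-1 to vit-6 differed between the sets of titles under standard conditions, with 0.571 to 0.847 in the 5 libraries titled 12_7 or 28_6 and 0.381 to 0.452 in the 3 others.

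**Figure D4:**
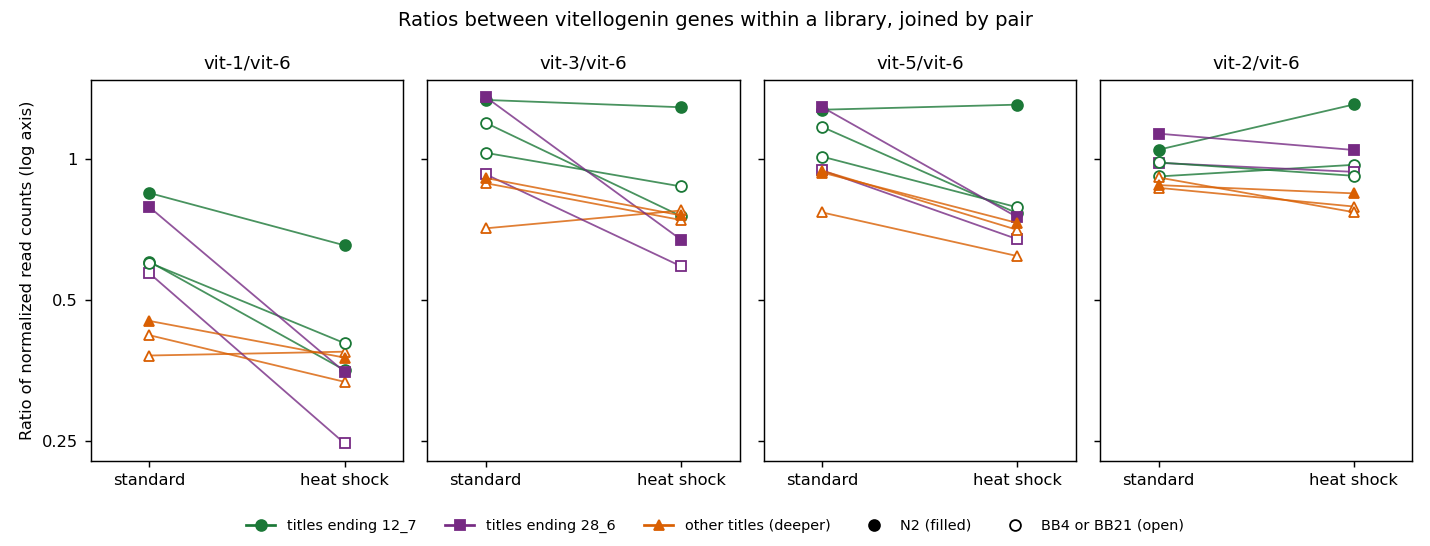
Ratios of the normalised counts of 4 pairs of vitellogenin genes (log axis) in each library, with a line joining the standard and heat-shocked library of a pair. The vit-1 to vit-6 ratio goes down in 7 of 8 pairs, from a median of 0.586 to 0.366, and the vit-2 to vit-6 ratio has medians of 0.950 and 0.930.

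The proportions of the transcripts of 1 gene differed between the sets of titles. C42D8.2b was at 0.736 to 0.777 of C42D8.2a in the 10 libraries titled 12_7 or 28_6 and at 0.939 to 0.947 in the 6 others. For vit-6, K07H8.6c was at 0.908 to 0.948 of K07H8.6a in the 10 and at 0.991 to 0.994 in the 6. K07H8.6b was at 0.0357 to 0.110 of K07H8.6a in the 10 and at 0.0857 to 0.0932 in the 6. No value overlapped between the sets for the first of these ratios or the second. How reads were shared among transcripts of 1 gene in the 2 kinds of library was not tested. Levels of the 9 transcripts followed each other across the 16 libraries, with Pearson's r of log2 values between 0.758 (vit-1 and vit-6 K07H8.6b) and 0.999 (vit-3 and vit-4). These values are a description, since the transcripts share libraries and depth and can share reads.

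Genes of yolk transport were taken from a list of 15 genes with 24 transcripts tested. rme-2, which encodes the yolk receptor of oocytes, fell in the ADAR mutants, from between 4352 and 6381 to between 1265 and 3750 normalised counts, with a log2 fold change of -1.49 ± 0.33 (adjusted p = 0.0154). In N2 it was between 6040 and 8609 under standard conditions and between 1360 and 4135 after heat shock, with -1.39 ± 0.43 (adjusted p = 0.0861, and 0.0119 with the block). It was lower in 8 of 8 pairs. No other transcript of this list passed limma without the block in the mutants, and 0 passed in N2, where 2 had an unadjusted p under 0.05, edgeR called 0 and DESeq2 called 1. With the block 3 of 24 transcripts fell in N2 and 4 of 24 in the mutants, where 9.91% and 9.75% of all transcripts fell. In the 12 libraries not titled 28_6, rme-2 had log2 fold changes of -1.60 in N2 (adjusted p = 0.146, and 0.0148 with the block) and -1.67 in the mutants (adjusted p = 0.0232, and 0.00139 with the block). dsc-4, the microsomal triglyceride transfer protein that loads lipid onto vitellogenin, had log2 fold changes of -0.09 and -0.17 (adjusted p = 0.944 and 0.835). The medians of the list were -0.42 in N2 and -0.01 in the mutants, against 0.04 and 0.07 over all transcripts.

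Known regulators of vitellogenin transcription and of the larval to adult switch were taken from a list of 22 genes with 64 transcripts tested. Of these 0 passed limma in N2, where 1 had an unadjusted p under 0.05 and edgeR and DESeq2 called 0, and 1 rose in the mutants, where 5.01% of all transcripts rose (2.36% in N2). That was sma-3, a SMAD of the body size pathway, at 0.82 ± 0.22 (adjusted p = 0.0358), with 0.68 in N2 (adjusted p = 0.197). With the block 2 rose and 2 fell in N2, where 9.57% of all transcripts rose, and 6 rose and 2 fell in the mutants, where 13.3% rose. The 6 were the transcripts of lin-29 and tra-1, with dbl-1 and sma-3 (adjusted p with the block between 0.00974 and 0.0297). The transcripts of lin-29, a zinc finger factor of the larval to adult switch, rose in both with the block, from means of 63.2 to 124 normalised counts for W03C9.4a in N2 and from 83.8 to 166 in the mutants (adjusted p = 0.0358 and 0.0122). Those of lin-41, which represses lin-29, fell in both with the block, with log2 fold changes of -0.99 and -0.89 for C12C8.3b (adjusted p = 0.0152 and 0.00386). C12C8.3b ranged from 104 to 4698 normalised counts among the N2 standard libraries, and the summed level of the whole list was between 37520 and 52339 in the 6 libraries with other titles and at most 13319 in the 10 titled 12_7 or 28_6. Among the 12 libraries not titled 28_6, 0 regulators were called in either comparison (sma-3 in the mutants 0.78, adjusted p = 0.164). With the block 0 rose and 4 fell in N2, and 9 rose and 2 fell in the mutants. In that fit 15.9% of all transcripts were called in N2 and 19.8% in the mutants, in either direction. unc-62 and ceh-60, which encode homeodomain factors that activate vit genes in the intestine, did not pass in either comparison with or without the block in the 16 libraries. Neither did pqm-1 (0.57 in N2 and -0.02 in the mutants) nor elt-2, the GATA factor of the intestine.

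Markers of the tissue that makes yolk and of the cells that take it up were compared in the same way. The 30 transcripts tested of 22 intestine genes summed to between 94426 and 123440 in N2 under standard conditions and between 66704 and 78214 after heat shock, and to between 71432 and 118110 and between 68194 and 102600 in the mutants. In limma 1 of the 30 fell in N2, fat-7, a stearoyl-CoA desaturase (-2.16 ± 0.52, adjusted p = 0.0406), and 1 fell in the mutants, elo-5, a fatty acid elongase (-1.23 ± 0.28, adjusted p = 0.0187). Of all transcripts 0.537% fell in N2 and 2.39% in the mutants. Of the 30, edgeR called 0 in N2 and 1 in the mutants, and DESeq2 called 3 and 2. Of all transcripts edgeR called 1.62% and 7.3% and DESeq2 8.51% and 12.7%, in either direction. With the block 13 of the 30 fell in N2, and 4 fell and 1 rose in the mutants. Of all transcripts 9.91% fell in N2, and 9.75% fell and 13.3% rose in the mutants with the block. At an unadjusted p under 0.05 limma had 15 and 7 of the 30. At that threshold 2969 of 24401 transcripts were higher and 1855 lower in N2, and 3139 and 1852 in the mutants. In the 12 libraries not titled 28_6 limma called 0 of the 30 in either comparison, and with the block 11 and 3 fell. Of all transcripts 1.25% and 5.03% were called in these 12 libraries, and 15.9% and 19.8% with the block. The list medians were -0.72 and -0.26, and 25 of the 30 had negative log2 fold changes in N2 and 24 in the mutants. All transcripts of ifb-2 and ifc-2 went the other way. Their log2 fold changes were between 0.24 and 0.47 in N2 and between 0.05 and 1.16 in the mutants. The 1 that rose with the block in the 16 libraries was ifc-2 M6.1c (adjusted p = 0.0406). The ratio of the vitellogenin sum to the intestine sum was lower after heat shock in 8 of 8 pairs, at 0.275 to 0.779 of the standard ratio. Of 19 transcripts tested of oocyte genes, 6 fell in N2 and 15 in the mutants in limma (18 and 19 with the block), and 0 rose. Of the same 19, edgeR called 4 and 12 and DESeq2 called 11 and 15. The shares of all transcripts in these fits are those given above for the intestine list. With the libraries titled 28_6 left out, 1 fell in N2 (egg-3) and 11 in the mutants, and 16 and 18 with the block. Their sum was between 60342 and 65956 in N2 before and between 21977 and 31932 after heat shock, and between 48187 and 60658 and between 14938 and 28153 in the mutants. oma-2, which encodes a zinc finger protein of oocyte maturation, fell by 1.45 ± 0.35 on the log2 scale in N2 (adjusted p = 0.0403) and by 1.74 ± 0.27 in the mutants (adjusted p = 0.00302). spn-4, an RNA-binding protein of oocytes and early embryos, fell by 1.46 ± 0.27 and 1.29 ± 0.21 (adjusted p = 0.0172 and 0.0037), and egg-3, needed at egg activation, by 1.69 ± 0.31 and 1.46 ± 0.24 (adjusted p = 0.0166 and 0.00383). cav-1, a caveolin of oocytes, went from between 75.6 and 313 to between 3.35 and 26.6 normalised counts in the mutants (-3.64 ± 0.55, adjusted p = 0.00267). The ratio of the vitellogenin sum to the oocyte sum was lower in 6 of 8 pairs, at 0.636 to 1.88 of the standard ratio. No defining marker of either list was at 0 in all libraries of a group, and the part of a change in tissue makeup or developmental stage in the vitellogenin result was not tested.

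**Figure D5:**
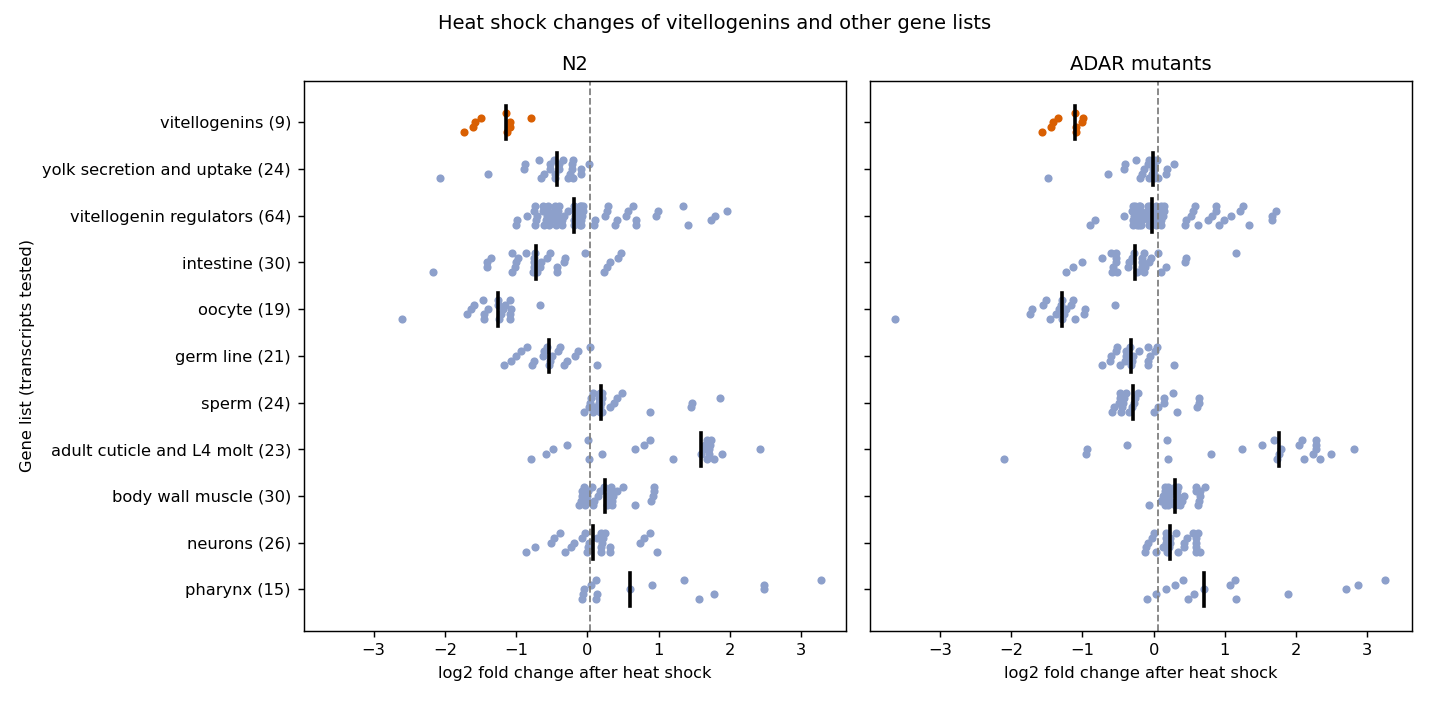
Log2 fold changes after heat shock of all transcripts tested in each gene list, in N2 and the ADAR mutants, with vitellogenins in orange, list medians as black bars and the median over all transcripts as a dashed line. The vitellogenin medians of -1.14 and -1.10 lie near those of the oocyte list, -1.26 and -1.29, and below those of the intestine list, -0.72 and -0.26.

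The transcripts whose levels were most like those of the vitellogenins across the 16 libraries were sought among 18874 transcripts with a mean of at least 20, by Pearson's r with the mean of the centred log2 values of the 9 members. The 10 highest were ZC449.7 (0.917), K09E3.7 (0.912), lin-3 (0.911), ztf-1 (0.903), D2096.12 (0.901), cbd-1 (0.898), M01E11.3 (0.895), C05D2.6 (0.894), wapl-1 (0.889) and vang-1 (0.886). cbd-1, which encodes a chitin-binding protein of the eggshell, is also in the oocyte list and fell by 1.19 in N2 and 0.97 in the mutants on the log2 scale (adjusted p = 0.0406 and 0.018). Without the libraries titled 28_6 its adjusted p was 0.158 and 0.0768, and 0.0143 and 0.00361 with the block. lin-3, whose transcript F36H1.4a was the one named, encodes the EGF ligand that the gonad uses to induce the vulva, and this transcript was at 491 and 309 normalised counts in N2 (means before and after heat shock) and at 437 and 303 in the mutants. The 5 lowest were cki-1 (-0.936), Y41E3.22 (-0.931), col-176 (-0.913), W05B10.3 (-0.909) and Y37D8A.16 (-0.907). cki-1, a cyclin-dependent kinase inhibitor, had log2 fold changes of 1.49 and 1.15 (adjusted p = 0.0966 and 0.0728, and 0.00899 and 0.00334 with the block), and col-176, a cuticle collagen gene, rose in the mutants, from a mean of 113 to 292 normalised counts (adjusted p = 0.0417).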

How the data were processed

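The series holds 1 table of normalised read counts for 16 poly(A) libraries of whole L4 worms. The authors mapped 50 nt single reads to the transcript models of WS220 with Bowtie after trimming and after merging identical reads, kept reads with more than 1 alignment, and divided the read count of each transcript by a DESeq2 size factor. The deposited normalised values (a signal that is whole reads divided by a size factor) gave whole reads for 100% of values within 0.001, and these recovered reads were used for depth and for the count tests. Versions of the authors' tools are not given in the sources used here. RNA was extracted with Direct-Zol or mirVana kits.

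Values were tested as log2(normalised count + 1) with limma 3.58.1 (R 4.3.3), with a mean-variance trend, in 1 model of 4 groups over 24401 transcripts with a mean of at least 1. P-values were two-sided with Benjamini-Hochberg adjustment over these, a transcript was called at an adjusted p under 0.05, and fold changes are on the log2(value + 1) scale. Alternatives included edgeR 4.0.16 and DESeq2 1.42.0 on the recovered reads and a replicate block of 8 pairs that share strain and replicate number. The pairing rests on these numbers and on deviations from group means that correlated in all 8 pairs (0.385 to 0.822). In only 5 of 8 pairs did the standard library correlate best with the heat-shocked library of its own pair. These deviations also hold differences between the sets of titles. The libraries of BB4 replicate 3 differ in title ending, and those of every other pair share it. The procedure was tested on simulated data. Alternatives were a pseudocount of 10, other filters, TMM and quantile scaling, sets of libraries, values per gene and each library left out. The fits without the libraries titled 28_6, the block with each pair left out and the ratios between members were added after the data had been seen. Where separate cultures are not stated, p-values measure only the spread between these libraries. A second deposited table of fold changes and p-values, the authors' own comparisons, was not used. Named genes were all members, from each list up to 4 transcripts called in a comparison (lowest p first) or otherwise the 2 most abundant, and the 10 transcripts most and 5 least like the members. dsc-4, lin-29, lin-41, tra-1, dbl-1, unc-62, ceh-60, pqm-1, elt-2, ifb-2, ifc-2, col-19, nas-37, grd-10 and myo-3 were added after their values were seen. The members and lists were chosen with earlier results of these data known. Length and gene order came from annotation of build WBcel235, not the build of the files, and sequences were not used here.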

Additional observations from a re-analysis of the deposited data

Results flagged for a closer look

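In 20 groups of 5 libraries examined (9 transcripts and their sum in the ADAR mutants under each condition), 1 library stood far from the rest in 2, where chance gives about 1 in 20. Both were BB4 heat shock replicate 3, with 10947 normalised counts of vit-6 K07H8.6a and 10857 of K07H8.6c. The other 4 heat-shocked mutant libraries were at 6234 to 7512 for K07H8.6a, so its gap to the nearest was 0.729 of the range, and 0.747 for K07H8.6c. These transcripts of 1 gene can share reads, so they do not count as 2 independent deviations.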

How the results depend on the processing

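The log2 fold changes after heat shock were negative for all 9 transcripts in N2 and in the mutants under every alternative, including each library or pair left out. The number called was what changed. In N2 it was 4, and it became 1 with a pseudocount of 10, with TMM scaling or with only the 12 libraries not titled 28_6. It became 0 with quantile normalization, with BB4 or BB21 alone as the mutant and with only the 2 groups compared, 2 with edgeR, 8 with only the libraries titled 12_7 or 28_6, and 9 with the replicate block or the title set block. No N2 count is given for the 6 libraries with other titles, where N2 had 1 library per condition. In the mutants the number called was 5, and it became 9 with the replicate block, the title set block, only the libraries titled 12_7 or 28_6 or only the others, and 0 with BB4 or BB21 alone. The replicate block on the 12 libraries not titled 28_6 gave 8 and 9. Shares of all transcripts called in either direction in N2 and the mutants were 2.9% and 7.4% in the main fit. They were 19.5% and 23% with the replicate block and 22.9% and 24.5% with the title set block. With the replicate block on those 12 libraries they were 15.9% and 19.8%. DESeq2, the other filters and values per gene (6 genes) gave 4 in N2 and between 4 and 6 in the mutants. The count with 1 library left out was between 0 and 4 in N2 and between 4 and 6 in the mutants, and with the replicate block and 1 pair left out between 4 and 9 in N2 and 9 in the mutants. The summed level with 1 library left out changed by -1.66 to -0.875 in N2 (exact p between 0.1 and 0.2) and by -1.34 to -1.08 in the mutants. Causes of these shifts were not tested.

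The comparisons of mutants with N2 and of their heat responses gave 0 called members under every alternative run, and the sign of the differences near 0 varied. The fit of the 6 libraries with other titles is left out of this count, as N2 had 1 library per condition there. With BB21 alone mutants against N2 under standard conditions turned to 0.0562 for vit-6 K07H8.6a and 0.0778 for vit-6 K07H8.6c. With BB21 alone the difference of responses turned to -0.3009 for vit-5 C04F6.1, -0.0325 for vit-3 F59D8.1, -0.0625 for vit-4 F59D8.2, -0.2074 for vit-6 K07H8.6a and -0.1837 for vit-6 K07H8.6c. With BB4 alone mutants against N2 after heat shock turned to 0.044 for vit-6 K07H8.6a and 0.0581 for vit-6 K07H8.6c. With BB4 alone the difference of responses turned to 0.1706 for vit-2 C42D8.2a and 0.1705 for vit-2 C42D8.2b. With DESeq2 the difference of responses turned to 0.0603 for vit-2 C42D8.2a and 0.0606 for vit-2 C42D8.2b. With edgeR the difference of responses turned to 0.0724 for vit-2 C42D8.2a and 0.0729 for vit-2 C42D8.2b. With the 12 libraries not titled 28_6, with or without the replicate block, the difference of responses turned to 0.074 for vit-2 C42D8.2a and 0.0968 for vit-2 C42D8.2b. With only the libraries with other titles the difference of responses turned to 0.0442 for vit-6 K07H8.6b. With only those titled 12_7 or 28_6 mutants against N2 after heat shock turned to 0.2652 for vit-6 K07H8.6a and 0.2977 for vit-6 K07H8.6c. With only those titled 12_7 or 28_6 mutants against N2 under standard conditions turned to 0.0227 for vit-6 K07H8.6a and 0.0266 for vit-6 K07H8.6c. With only those titled 12_7 or 28_6 the difference of responses turned to 0.115 for vit-2 C42D8.2a and 0.1256 for vit-2 C42D8.2b. With quantile normalization mutants against N2 after heat shock turned to 0.0563 for vit-6 K07H8.6a and 0.0633 for vit-6 K07H8.6c. With quantile normalization mutants against N2 under standard conditions turned to 0.0255 for vit-2 C42D8.2a, 0.0575 for vit-2 C42D8.2b, 0.0421 for vit-6 K07H8.6a and 0.1075 for vit-6 K07H8.6c. With quantile normalization the difference of responses turned to -0.164 for vit-5 C04F6.1, -0.0488 for vit-4 F59D8.2, -0.0442 for vit-6 K07H8.6c and -0.1137 for vit-1 K09F5.2. With TMM scaling mutants against N2 after heat shock turned to 0.0194 for vit-6 K07H8.6c. With TMM scaling the difference of responses turned to -0.0028 for vit-5 C04F6.1. The ranges with 1 library left out crossed 0 for these results. For mutants against N2 under standard conditions they were -0.54 to 0.17 for vit-2 C42D8.2a, -0.59 to 0.29 for vit-2 C42D8.2b, -0.50 to 0.40 for vit-6 K07H8.6a, -0.66 to 0.45 for vit-6 K07H8.6b and -0.51 to 0.44 for vit-6 K07H8.6c. For mutants against N2 after heat shock they were -0.46 to 0.0898 for vit-2 C42D8.2b, -0.56 to 0.04 for vit-3 F59D8.1, -0.54 to 0.05 for vit-4 F59D8.2, -0.33 to 0.37 for vit-6 K07H8.6a and -0.32 to 0.44 for vit-6 K07H8.6c. For the difference of responses they were -0.12 to 0.45 for vit-1 K09F5.2, -0.47 to 0.25 for vit-2 C42D8.2a, -0.56 to 0.36 for vit-2 C42D8.2b, -0.14 to 0.54 for vit-3 F59D8.1, -0.18 to 0.51 for vit-4 F59D8.2, -0.35 to 0.32 for vit-5 C04F6.1, -0.43 to 0.54 for vit-6 K07H8.6a, -1.03 to 0.12 for vit-6 K07H8.6b and -0.45 to 0.59 for vit-6 K07H8.6c. With the replicate block and 1 pair left out the difference of responses turned to 0.2216, 0.0066, 0.055 and 0.131 for vit-2 C42D8.2a and 0.2293, 0.0154, 0.056 and 0.1446 for vit-2 C42D8.2b (without BB21 replicate 2, BB4 replicate 3, N2 replicate 1 and N2 replicate 2), to -0.0567 and -0.0887 for vit-5 C04F6.1 (without BB4 replicate 2 and N2 replicate 3) and to -0.0232 for vit-6 K07H8.6a (without N2 replicate 3). Beside the calls after heat shock, no call was changed by the replicate block. The lowest library of K07H8.6b had 168 reads, so that depth limits this transcript most. The fit of only the 2 groups compared was not run for the difference of responses, and the block of pairs was not run for mutants against N2, which it cannot estimate.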

Other observations

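Gene lists of other tissues give the setting of the vitellogenin decrease in whole worms. Of all transcripts 2.36% rose and 0.537% fell in N2 in limma, and 5.01% and 2.39% in the mutants. With the block 9.57% rose and 9.91% fell in N2, and 13.3% and 9.75% in the mutants. edgeR called 1.62% and 7.3% of all transcripts and DESeq2 8.51% and 12.7%, in either direction. At an unadjusted limma p under 0.05, 2969 of 24401 transcripts were higher and 1855 lower in N2, and 3139 and 1852 in the mutants. Of 21 transcripts of germ line genes, 0 passed limma in either comparison (5 in N2 and 3 in the mutants at an unadjusted p under 0.05, with edgeR calling 0 in both and DESeq2 calling 2 in N2 and 0 in the mutants), while 8 fell in N2 and 5 in the mutants with the replicate block, and the list sum was lower in 7 of 8 pairs (0.728 to 1.01 of the standard level). The most abundant members, pgl-1 ZK381.4a and glh-1, had log2 fold changes of -0.33 and -0.17 in N2 and of -0.07 and -0.05 in the mutants. Of 24 sperm transcripts 0 passed limma without the block (3 in N2 and 0 in the mutants at an unadjusted p under 0.05, with edgeR calling 0 in both and DESeq2 calling 3 in N2 and 0 in the mutants), and with it 4 rose in N2 and 2 fell in the mutants. The sperm sum was between 11258 and 18169 normalised counts in the 6 libraries with titles other than 12_7 and 28_6 and between 29921 and 83642 in the 10 others. Of 12 early embryo transcripts tested, nos-2 and pes-1 fell in the mutants in limma (-1.99 and -2.53, adjusted p = 0.0192 and 0.0145), where edgeR and DESeq2 called 5 each, and 0 passed in N2 (4 at an unadjusted p under 0.05, and 0 in edgeR and DESeq2). With the block 1 rose and 1 fell in N2, and 1 rose and 2 fell in the mutants, and the list sum was lower in 8 of 8 pairs. The medians of the log2 fold changes in that list were 0.81 in N2 and 0.37 in the mutants, opposite in sign to the change of the sum. nos-2 had a mean of 1033 normalised counts and the other transcripts tested had means between 1.42 and 20.6. The sum is therefore mostly nos-2, and the medians come from transcripts with few reads.

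The shares of all transcripts given above for the 16 libraries hold for the lists below too. The sum of adult cuticle and L4 molt genes was higher after heat shock in 8 of 8 pairs, by 1.21 to 2.46 times. Of 23 transcripts 0 passed limma in N2 (5 at an unadjusted p under 0.05, with edgeR calling 0 and DESeq2 calling 3), and dpy-13 and mlt-8 rose in the mutants (2.12 and 2.49, adjusted p = 0.0111 and 0.0166). With the block 7 rose in N2, and 15 rose and 2 fell in the mutants, the latter being nas-37 C17G1.6b (-0.94) and grd-10 (-2.10, adjusted p = 0.00925). The adult collagen gene col-19 had log2 fold changes of 0.01 and -0.38 (adjusted p = 0.999 and 0.819). Of 15 pharynx transcripts, phat-1 and phat-2 rose in the mutants (3.25 and 1.89, adjusted p = 0.0279 and 0.0426), and 0 passed in limma, edgeR or DESeq2 among 30 of body wall muscle and 26 of neurons without the block (1 of muscle in the mutants at an unadjusted p under 0.05, and 0 otherwise). With the block the muscle genes unc-54 and myo-3 rose in the mutants (adjusted p = 0.0361 and 0.00395), 0 neuron transcripts were called, and 6 pharynx transcripts rose in N2 and 5 in the mutants. The abundant muscle genes act-3 and unc-54 had log2 fold changes of 0.16 and 0.60 in the mutants, and the neuron genes egl-21 and snb-1 of -0.03 and 0.18. Of 17 heat shock gene transcripts 3 rose in N2 and 7 in the mutants, among them hsp-16.41 (2.22 and 1.99, adjusted p = 0.0462 and 0.0139). Of 6 transcripts of adr-1 and adr-2, 0 were called after heat shock in limma without the block, edgeR or DESeq2 (1 fell in N2 with the block), and 0 had an unadjusted p under 0.05. Without the libraries titled 28_6, with no block, 0 germ line, sperm, muscle, neuron and pharynx transcripts were called in either comparison. In the early embryo list 2 rose in N2, and 2 rose and 2 fell in the mutants. In the cuticle and molt list 0 were called in N2 and 1 rose in the mutants, and of the heat shock genes 7 and 9 rose. Of all transcripts 1.25% in N2 and 5.03% in the mutants were called there, in either direction.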
